A study of Mus musculus with 5 samples.

Results

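The matrix metalloproteinases (MMPs), the ADAMTS and ADAMTS-like (ADAMTSL) families and the tissue inhibitors of metalloproteinases (TIMPs) were examined in whole uteri of pseudopregnant mice. Members were all genes of the deposited count table named Mmp, Timp, Adamts or Adamtsl followed directly by a number and any end letter. This gave 49 of 28666 listed genes, namely 21 MMP, 4 TIMP, 19 ADAMTS and 5 ADAMTSL genes. The rule uses gene names and no expression value, but it was chosen with earlier results of these data known. The uteri came from ICR females aged 6 to 8 weeks that were caged in estrus with vasectomized C57BL/6 males, whose ejaculate holds seminal plasma (SP) but no sperm. The males of the young-SP group (n = 3 libraries, replicates 1, 2 and 4) were 12 to 14 weeks old, and those of the aged-SP group (n = 2 libraries, replicates 1 and 4) were 12 to 18 months old. Both groups therefore carried no embryos and differed by the age of the male. The series description places collection at 3.5 days after caging and the study's methods at 3.0 days post coitum, before any embryo transfer. ICR is an outbred stock, the labels do not say whether females of a group shared a male, and p-values measure the spread between these libraries only. A young-SP uterus that the study set aside as an outlier and unmated females were not analysed here.

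MMPs are zinc-dependent endopeptidases that are made as inactive proenzymes and, once activated, cleave collagens, gelatins, laminin, elastin and many cell surface proteins. The stromelysins Mmp3 and Mmp10 and matrilysin act on basement membrane and activate other MMPs. Gelatinases act on type IV collagen, and the membrane-anchored MMPs work at the cell surface, where Mmp14 together with Timp2 activates Mmp2. TIMPs bind the active site of MMPs, and Timp3 also inhibits several ADAMTS and ADAM proteases. ADAMTS proteases are secreted enzymes with thrombospondin repeats that cleave versican and related proteoglycans, remove the N-terminal propeptides of fibrillar procollagens or act on fibrillin microfibrils. ADAMTSL proteins share the repeats but lack the protease domain. In the uterus these families take part in the remodelling of matrix during the estrous cycle, implantation, decidualization and involution after birth.

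Libraries held between 15071914 and 16728601 counted reads. Levels are given as CPM (reads relative to library size, scaled with TMM factors), always in the order aged-SP replicates 1 and 4 and then young-SP replicates 1, 2 and 4. FPKM, which also divides by gene length, was used where levels of different genes were compared. Young-SP replicate 1 stood apart in the calls, since edgeR called 25 of 17013 tested genes with it and 578 of 16745 without it. Estimates that it changed in call or by much in size are also given without it. It was singled out by these calls, so adjusted p-values without it are descriptions and no separate support. Among the young-SP libraries its counts differed least from both aged-SP libraries (chi-square per degree of freedom 50.4 and 39.4). Leaving it out therefore widens the contrast. The 8 epithelial markers did not place it on 1 side. Among the young-SP libraries it had the highest level of Epcam, Cdh1, Krt7, Krt8, Krt18 and Krt19 and the lowest of Foxa2 and Msx1. Summed levels of the 6 myometrial markers were 9025 and 11421 CPM in the aged-SP libraries and 9787, 9405 and 14202 CPM in the young-SP libraries, and those of the 6 stromal markers were 1674 and 1972 CPM in the aged-SP libraries and 1928, 2710.2 and 2610.3 CPM in the young-SP libraries. These markers are those of a whole uterus, whereas 4 adipose markers summed to at most 1.93 CPM in any library. RNA was taken from whole organs, so fewer cells of a type and less RNA per cell cannot be told apart.

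In the aged-SP uteri the MMP genes of a run of neighbours on chromosome 9 were all fitted higher, while the other MMP genes went both ways. The ADAMTS genes were mostly fitted lower, but few members stood clear of the replicate spread. Of the 49 members, 44 had enough reads to be tested, and the other 5 (Adamts13, Mmp20, Mmp21, Mmp24 and Timp4) had too few reads. With the study's thresholds of 0.05 for the adjusted p and 1 for the size of the log2 fold change, edgeR's quasi-likelihood test called 0 of 44 members, where 0.147% of all 17013 tested genes were called, and the smallest adjusted p was 0.0566, for Adamts14. At an unadjusted p under 0.05, 4 members lay on the higher and 8 on the lower side (9.09% and 18.2% of members, beside 9.62% and 9.36% of all tested genes). DESeq2's Wald test, the tool of the study, called 5 of the 43 members with an adjusted p (11.6%, beside 3.60% of all genes), which were Mmp10 and Mmp11 on the higher side (background 1.69%) and Adamts14, Adamts16 and Adamtsl2 on the lower side (background 1.92%). The aged-SP and young-SP libraries did not overlap for 8 members with higher and 12 with lower levels (18.2% and 27.3%), where 19.5% and 19.3% of all tested genes separated in those directions. Among them, Mmp10 (higher) and Adamts20 (lower) had enough reads to be tested only through the group where they are high. Their separation was thus partly set by that choice. A fitted fold change above 0 was found for 21 members (47.7%, beside 50.9% of all genes).

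By family, 12 of 18 tested MMP genes were fitted higher with a median log2 fold change of 0.39, and 13 of 18 tested ADAMTS genes were fitted lower with a median of -0.42. The MMP genes fitted higher included all 7 tested genes of the chromosome 9 run, and all 6 fitted lower lay outside it. The 3 tested TIMP genes had a median of 0.37 and the 5 ADAMTSL genes one of -0.29. The median over the 44 members was -0.09, which turned to 0.071 without young-SP replicate 4, and that of all tested genes 0.01. Medians by family are descriptions of these 5 libraries and were not tested.

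**Figure D1:**
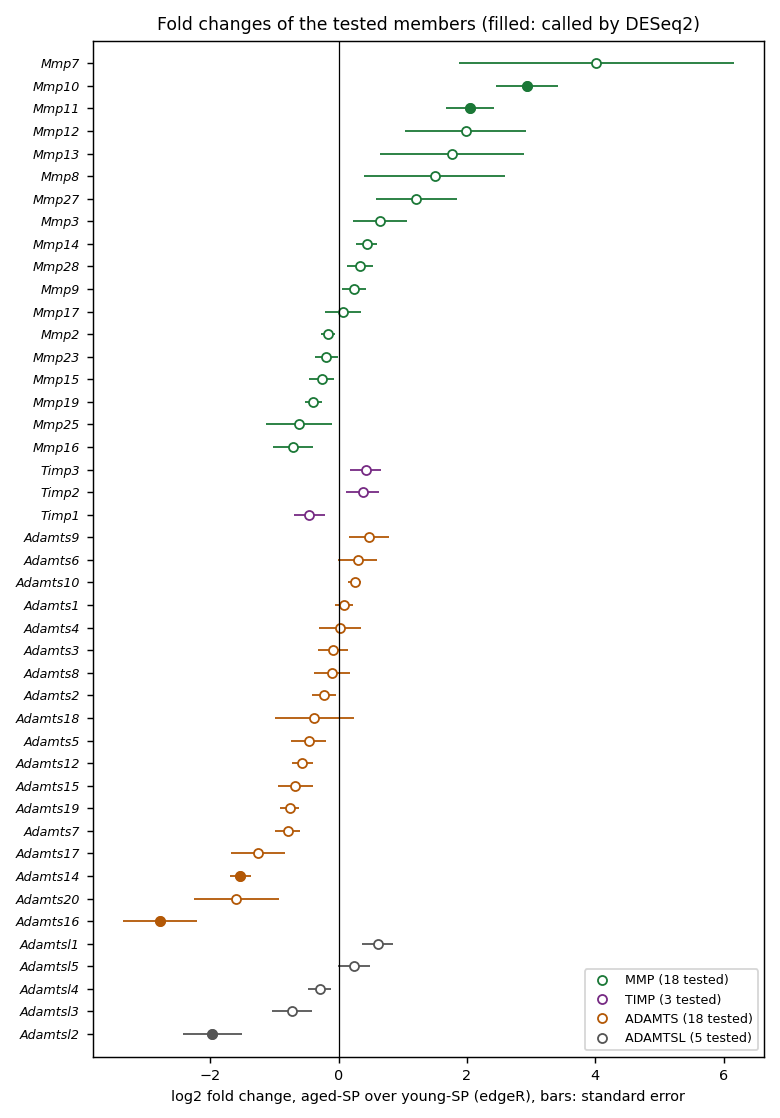
Log2 fold change (aged-SP over young-SP, edgeR) of the 44 tested members on the x axis, grouped by family on the y axis, with bars for the standard error and filled points for the 5 members called by DESeq2. Fold changes run from 4.01 for Mmp7, which has the widest bar, to -2.78 for Adamts16, and 13 of 18 ADAMTS genes lie below 0.

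Among the MMP classes, DESeq2 called members of the stromelysins only, and edgeR called none. Mmp10 (stromelysin 2, chr9:7502352-7510240 on GRCm38, plus strand) had 35 and 64 against 9, 4 and 6 reads, which is 2.11 and 4.09 CPM in the aged-SP libraries and 0.562, 0.236 and 0.400 CPM in the young-SP libraries. Each aged-SP library lay above every young-SP library, with means of 3.10 ± 1.40 CPM (SD, n = 2) against 0.399 ± 0.163 CPM (SD, n = 3). Mmp10 passed the filter on low counts only through the aged-SP libraries, where it is high. Its separation is therefore not independent of that filter. The log2 fold change was 2.94 (SE 0.49), with an adjusted p of 0.0795 in edgeR and 0.000879 in DESeq2. Of its 50-base stretches 8.37% also occur in other genes, so not all of its reads can be assigned with certainty. Mmp11 (stromelysin 3, chr10:75923222-75936496, minus strand), which is best known from stromal cells in remodelling tissue, was at 80.4 and 190.2 CPM in the aged-SP libraries and 26.7, 32.1 and 39.2 CPM in the young-SP libraries. Aged-SP replicate 4 was the highest library and replicate 1 the next, and the groups did not overlap, with means of 135 ± 77.6 CPM (SD, n = 2) against 32.6 ± 6.28 CPM (SD, n = 3). Its log2 fold change was 2.05 (SE 0.38), with an adjusted p of 0.0884 in edgeR and 5.99e-06 in DESeq2, and it was 1.30 without aged-SP replicate 4. Exons of Chchd10 overlap 5.58% of the Mmp11 exon bases, and the library kit does not mark strand. Mmp3 (stromelysin 1), which shares 8.39% of its 50-base stretches with other genes, was at 28.9 and 44.97 CPM in the aged-SP libraries and 13.2, 22.8 and 34.9 CPM in the young-SP libraries, where the groups overlapped (log2 fold change 0.64, SE 0.42, edgeR's adjusted p = 0.451).

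**Figure D2:**
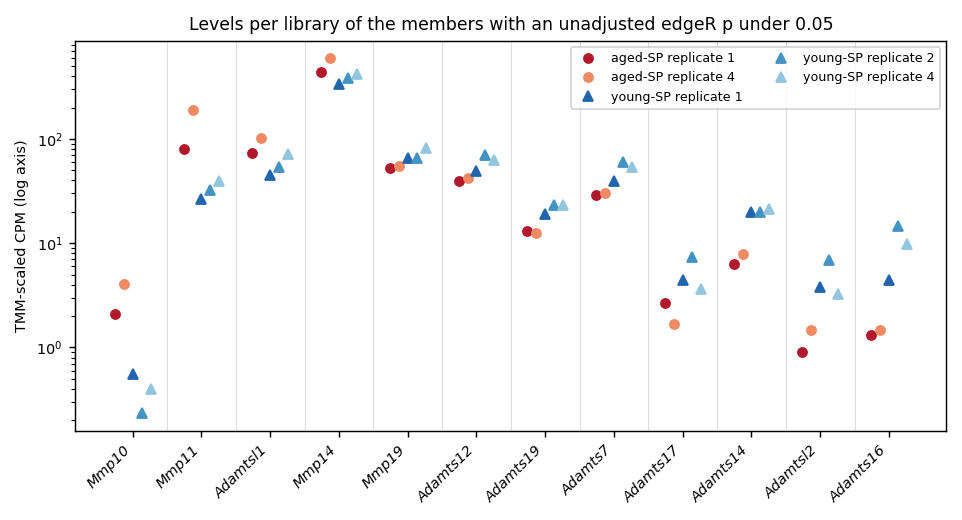
TMM-scaled CPM (log y axis) of the 12 members with an unadjusted edgeR p under 0.05 (x axis), with circles for the 2 aged-SP and triangles for the 3 young-SP libraries. No member shows overlap between circles and triangles, and wide gaps between groups are seen for Mmp10, Adamts16 and Adamts14.

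Mmp10 and Mmp3 belong to a run of 8 members on chromosome 9, in the order Mmp13, Mmp12, Mmp3, Mmp10, Mmp8, Mmp27, Mmp20 and Mmp7, that spans chr9:7272514-7699585. All 7 tested members of this run had a fitted log2 fold change above 0, from 0.64 to 4.01 with a median of 1.77, but only Mmp10 and Mmp12 had groups that did not overlap, and Mmp10 was the only member of the run called by DESeq2. Values of Mmp3, Mmp8, Mmp12, Mmp13, Mmp20 and Mmp27 were chosen after they were seen, for their position beside Mmp10 and Mmp7. Neighbours are no independent replicates of each other.

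Sequences of 250 bases before the RefSeq start (GRCm38.p6) are shown for Mmp10, Mmp3 and Mmp7 of the run, for Mmp11 as the called MMP outside it and for Adamts14 as the member with the smallest adjusted p. Capitals mark the letters TGAGTCA or the reverse complement TGACTCA (the AP-1 site), TATAAA on the gene's strand (TATA box) and GGGCGG or its reverse complement CCGCCC (GC box).
Mmp10 (chr9:7502092-7502341, plus strand): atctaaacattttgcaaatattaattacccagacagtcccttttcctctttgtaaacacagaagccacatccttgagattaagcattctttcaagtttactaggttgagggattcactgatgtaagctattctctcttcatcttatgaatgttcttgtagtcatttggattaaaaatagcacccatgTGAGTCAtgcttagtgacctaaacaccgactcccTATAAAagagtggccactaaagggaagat
Mmp3 (chr9:7445572-7445821, plus strand): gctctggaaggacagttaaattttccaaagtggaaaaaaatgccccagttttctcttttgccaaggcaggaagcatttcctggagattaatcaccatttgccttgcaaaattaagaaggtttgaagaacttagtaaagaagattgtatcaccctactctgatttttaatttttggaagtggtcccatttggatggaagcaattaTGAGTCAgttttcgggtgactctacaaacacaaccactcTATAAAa
Mmp7 (chr9:7691840-7692089, plus strand): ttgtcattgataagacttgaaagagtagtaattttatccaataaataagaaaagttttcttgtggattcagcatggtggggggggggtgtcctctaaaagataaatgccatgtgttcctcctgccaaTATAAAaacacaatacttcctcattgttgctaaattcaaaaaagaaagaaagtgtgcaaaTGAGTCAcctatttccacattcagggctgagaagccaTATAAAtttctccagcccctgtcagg
Mmp11 (chr10:75932503-75932752, minus strand): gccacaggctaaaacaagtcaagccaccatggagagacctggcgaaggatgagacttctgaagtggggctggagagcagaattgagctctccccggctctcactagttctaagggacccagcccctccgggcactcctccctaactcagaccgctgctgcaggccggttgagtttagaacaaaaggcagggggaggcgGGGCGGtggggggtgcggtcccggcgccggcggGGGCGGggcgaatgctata
Adamts14 (chr10:61273420-61273669, minus strand): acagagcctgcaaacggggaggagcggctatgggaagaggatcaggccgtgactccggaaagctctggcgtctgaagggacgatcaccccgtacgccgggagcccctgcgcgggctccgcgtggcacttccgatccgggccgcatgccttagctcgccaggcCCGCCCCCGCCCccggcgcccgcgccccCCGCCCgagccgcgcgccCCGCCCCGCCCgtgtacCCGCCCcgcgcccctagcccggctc

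Mmp10, Mmp3 and Mmp7 each hold an AP-1 sequence and a TATA box in this window, with the AP-1 sequence beginning 63 bases before the start in Mmp10, 63 in Mmp7 and 46 in Mmp3. Their windows are 37.2%, 37.6% and 38.0% G and C, whereas those of Mmp11 and Adamts14 are 63.2% and 76.4% and hold GC boxes and neither of the other motifs. Across the 8 genes of the run, 4 windows hold the AP-1 sequence, 5 the TATA box and 0 the GC box. Among the 34 members with a RefSeq promoter the numbers are 4, 8 and 20, and the shares of all 32851 promoters are 4.46%, 7.59% and 32.7%. The GC box and the AP-1 sequence were searched on both strands. A match describes letters in this window and not the binding of a factor. The Mmp11 start used by RefSeq lies 3994 bases from the start of the deposited gene.

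Mmp7 (matrilysin, chr9:7692090-7699585), an enzyme of glandular epithelium, had the largest standard error of the 44 tested members. It had 8686 and 510 reads in the aged-SP libraries and 819, 0 and 8 reads in the young-SP libraries, that is 524 and 32.6 against 51.2, 0 and 0.533 CPM. Young-SP replicate 1 lay above aged-SP replicate 4, so the groups overlapped, and the log2 fold change of 4.01 (SE 2.14) had an adjusted p of 0.374 in edgeR. The estimate was 0.92 without aged-SP replicate 1 and 10.06 without young-SP replicate 1 (edgeR's adjusted p = 0.0625), where the young-SP side rests on 0 and 8 reads, and DESeq2 gave no adjusted p. Of the 8 epithelial markers, Epcam (262 and 235 against 280.5, 76.5 and 86.9 CPM) and Krt7 (85.4 and 133 against 114, 27.3 and 45.2 CPM) were high in both aged-SP libraries and in young-SP replicate 1. The gland marker Foxa2 (10.6 and 11.9 against 8.50, 14.1 and 11.6 CPM) was lowest in young-SP replicate 1, and Msx1 (71.3 and 141 against 164, 200.3 and 192 CPM) lay below every young-SP library in the aged-SP group. Together the 8 markers summed to 1204 and 1408 CPM in the aged-SP libraries and 1653, 940.3 and 1110.4 CPM in the young-SP libraries. The part of epithelial content in the Mmp7 values was not tested. Exons of AV064505 overlap 11.5% of the Mmp7 exon bases.

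Mmp12 (macrophage metalloelastase, chr9:7344381-7369499) was at 9.18 and 9.39 CPM in the aged-SP libraries and 5.50, 0.354 and 1.20 CPM in the young-SP libraries. Both aged-SP libraries were above all young-SP libraries, with young-SP replicate 1 nearer to them than the other two. The log2 fold change was 1.98 (SE 0.95) with an adjusted p of 0.329 in edgeR, and 3.58 with an adjusted p of 0.0340 without young-SP replicate 1. All 7 macrophage markers overlapped between the groups, and their summed level was 1205 and 2049.7 CPM in the aged-SP libraries and 1849, 943 and 1324 CPM in the young-SP libraries. Low counts limited the collagenases of the run. Mmp8, the collagenase of neutrophils, had 32 and 5 against 15, 2 and 2 reads and Mmp13 (collagenase 3) had 36 and 9 against 14, 0 and 5 reads, with log2 fold changes of 1.50 (SE 1.10) and 1.77 (SE 1.13) and adjusted p-values of 0.501 and 0.443 in edgeR. In both genes the highest young-SP library, replicate 1, exceeded aged-SP replicate 4. The neutrophil markers S100a9 (50.05 and 2.17 against 102, 14.5 and 5.33 CPM) and S100a8 were also highest in young-SP replicate 1 and aged-SP replicate 1. Ngp (1.15 and 0.0639 against 0.937, 0.177 and 0.133 CPM) was highest in these libraries too, at low counts. Retnlg, Mpo and Ly6g did not follow them. Retnlg (15.1 and 8.94 against 8.62, 18.4 and 15.3 CPM) and Mpo (3.08 and 2.55 against 1.69, 2.77 and 3.07 CPM) were lowest in young-SP replicate 1. Ly6g (0.543 and 1.21 against 0.812, 0.177 and 0.200 CPM) was highest in aged-SP replicate 4. The granule genes Elane and Camp were at or near 0 in every library, and the part of neutrophils was not tested. Mmp27, which is retained in the secretory pathway, had 14 and 39 against 6, 12 and 16 reads, with overlapping groups, a log2 fold change of 1.21 (SE 0.63) and an adjusted p of 0.365 in edgeR.

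**Figure D3:**
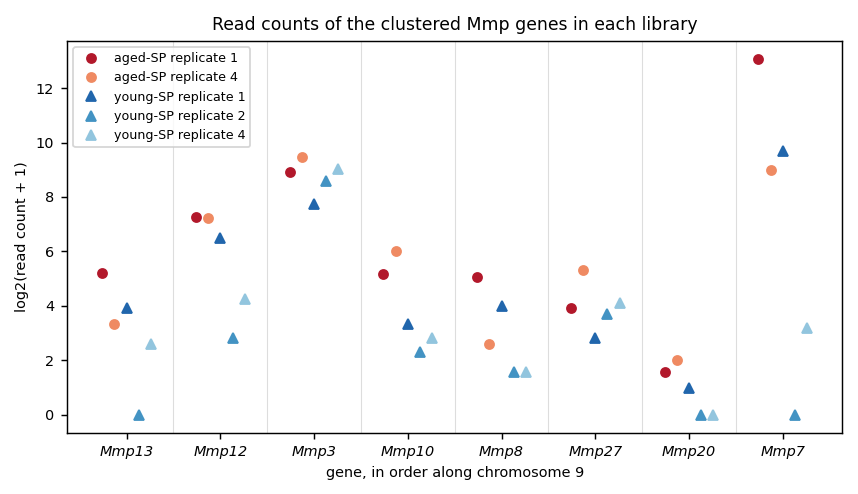
Read counts, as log2(count + 1) on the y axis, of the 8 neighbouring MMP genes in their order along chromosome 9 (x axis), with circles for aged-SP and triangles for young-SP libraries. The circles lie above every triangle for Mmp12, Mmp10 and the sparsely read Mmp20, while for Mmp7 young-SP replicate 1 (819 reads) lies above aged-SP replicate 4 (510 reads).

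Mmp2 and Mmp14 made up most MMP transcripts outside Mmp7. Mmp2 (gelatinase A, chr8:92827291-92853420) had the highest mean FPKM of all members and was at 575 and 625 CPM in the aged-SP libraries and 724, 623 and 669 CPM in the young-SP libraries. Aged-SP replicate 4 lay at the lower end of the young-SP range and replicate 1 below it, with a log2 fold change of -0.16 (SE 0.11) and an adjusted p of 0.451 in edgeR. Mmp9 (gelatinase B, chr2:164940780-164955850), a product of leukocytes among other cells, was at 26.3 and 26.0 CPM in the aged-SP libraries and 27.3, 19.7 and 19.4 CPM in the young-SP libraries. Young-SP replicate 1 had the highest Mmp9 level, and the log2 fold change was 0.24 (SE 0.19, edgeR's adjusted p = 0.525). With 1 library left out the Mmp9 estimate ranged between 0.15 and 0.41, the upper value without young-SP replicate 1. Mmp14 (MT1-MMP, chr14:54431612-54445364), the cell surface activator of Mmp2, was at 435 and 591 CPM in the aged-SP libraries and 333, 386 and 419 CPM in the young-SP libraries. Both aged-SP libraries exceeded the young-SP libraries by a narrow margin, at 513 ± 110.0 CPM (SD, n = 2) against 379 ± 43.1 CPM (SD, n = 3). Its log2 fold change of 0.44 (SE 0.17) had an adjusted p of 0.255 in edgeR and was 0.20 without aged-SP replicate 4. As FPKM, Mmp2 was at 169 and 185 against 213, 189 and 198 and Mmp14 at 72.3 and 99.1 against 55.6, 66.1 and 69.9, and together they held between 61.1% and 72.1% of summed MMP FPKM when Mmp7 was left out. Mmp7 alone held 57.8% of the MMP sum in aged-SP replicate 1 and 6.15%, 11.3%, 0% and 0.127% in the other libraries in order.

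The other membrane-anchored MMPs were Mmp15, Mmp16, Mmp17, Mmp24 and Mmp25, and Mmp23, which has an N-terminal anchor, was counted with them. With Mmp14 they were 7 listed and 6 tested genes, of which 4 were fitted lower (median log2 fold change -0.23). Mmp16 had the lowest estimate (log2 fold change -0.71, SE 0.31, edgeR's adjusted p = 0.299), with both aged-SP libraries just below young-SP replicate 1, and was -0.97 with an adjusted p of 0.0329 in edgeR without that library. Mmp19 (chr10:128790910-128800824), a secreted MMP of stroma and vessels, was at 52.6 and 55.5 CPM in the aged-SP libraries and 65.1, 65.9 and 82.5 CPM in the young-SP libraries. The groups did not overlap, and the log2 fold change was -0.40 (SE 0.13) with an adjusted p of 0.214 in edgeR. Exons of Gm47093 and Tmem198b cover 28.3% of its exon bases, so part of its reads cannot be assigned with certainty. Mmp28 (epilysin) was fitted slightly higher, at 0.33 (SE 0.20, edgeR's adjusted p = 0.416).

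None of the 3 tested TIMP genes passed edgeR's or DESeq2's threshold. Timp2 (chr11:118301069-118355740), the partner of Mmp14, was at 569 and 855 CPM in the aged-SP libraries and 457, 491 and 701 CPM in the young-SP libraries. Young-SP replicate 4 exceeded aged-SP replicate 1, and the log2 fold change of 0.37 (SE 0.26) had an adjusted p of 0.472 in edgeR and was 0.05 without aged-SP replicate 4 and 0.64 without aged-SP replicate 1. Timp3 (chr10:86300372-86349506), which binds to the matrix, was at 191 and 209 CPM in the aged-SP libraries and 102, 168 and 178 CPM in the young-SP libraries. Both aged-SP libraries were above the young-SP libraries, with young-SP replicate 1 far below the rest, for a log2 fold change of 0.42 (SE 0.25) and an adjusted p of 0.411 in edgeR. Without young-SP replicate 1 it was 0.20. Timp3 lies within Syn3, whose exons share 21.3% of its exon bases. Timp1 (chrX:20870166-20874735), an inducible inhibitor, was at 12.4 and 8.30 CPM in the aged-SP libraries and 16.2, 14.5 and 11.9 CPM in the young-SP libraries. Here aged-SP replicate 1 lay within the young-SP range, and the log2 fold change was -0.46 (SE 0.24, edgeR's adjusted p = 0.367). With 1 library left out the Timp1 estimate ranged between -0.78 and -0.20. Timp2 supplied between 77.3% and 86.2% of summed TIMP FPKM in every library. The ratio of summed MMP to summed TIMP FPKM was 4.63 and 1.95 in the aged-SP and 2.86, 2.16 and 1.82 in the young-SP libraries. The library with the highest ratio, aged-SP replicate 1, also had the highest Mmp7 share. Mmp7 is part of the MMP sum, so this is no separate observation.

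**Figure D4:**
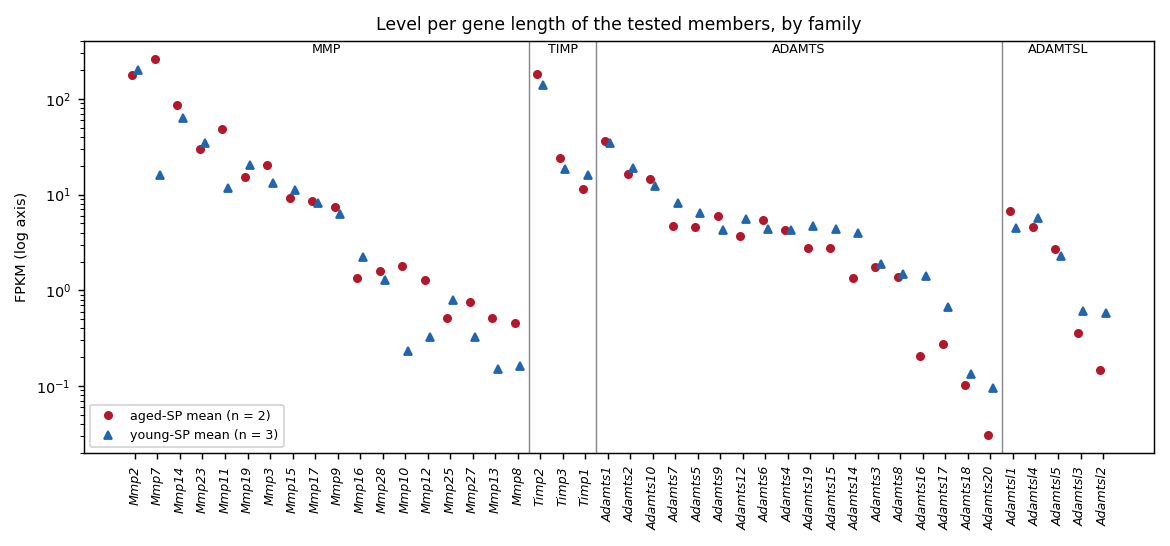
Mean FPKM (log y axis) of the 44 tested members in the aged-SP (circles, n = 2) and young-SP group (triangles, n = 3), ordered by level within each family on the x axis. Mmp2, Timp2 and Mmp14 stand near the top with circles and triangles close together, whereas Mmp7, Mmp10, Mmp11, Adamts16 and Adamtsl2 show wide gaps.

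Among the ADAMTS proteases the procollagen N-proteinase Adamts14 (chr10:61197112-61273438, minus strand) had the smallest adjusted p. It was at 6.28 and 7.79 CPM in the aged-SP libraries and 19.7, 19.9 and 21.3 CPM in the young-SP libraries, or 7.04 ± 1.07 CPM (SD, n = 2) against 20.3 ± 0.879 CPM (SD, n = 3). The 3 young-SP libraries lay close together and both aged-SP libraries were well below them. Its log2 fold change was -1.53 (SE 0.16), with an adjusted p of 0.0566 in edgeR and 1.15e-10 in DESeq2, and leaving out any 1 library kept it between -1.69 and -1.38. The other N-proteinases were Adamts2 (chr11:50602084-50807573), at 136 and 169.8 CPM in the aged-SP libraries and 163, 155 and 217 CPM in the young-SP libraries, and Adamts3. Adamts2 levels overlapped (log2 fold change -0.22, SE 0.19, edgeR's adjusted p = 0.558), and Adamts3 was fitted at -0.08 (SE 0.23). With 1 library left out the Adamts2 estimate ranged between -0.39 and -0.07.

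The fibrillar procollagens, whose propeptides these enzymes remove, were given from a list of 16 genes that also holds the C-proteinases. Of 15 tested, 12 were fitted lower (median log2 fold change -0.56). At an unadjusted edgeR p under 0.05, 7 were lower and 1 higher, beside 9.36% and 9.62% of all tested genes. With all libraries edgeR called 1 gene, beside 0.147% of all tested genes. This was Col11a1 (log2 fold change -1.97, SE 0.18, edgeR's adjusted p = 0.0484). Col11a1, a minor fibrillar collagen, was at 10.2 and 9.84 CPM in the aged-SP libraries and 34.8, 46.8 and 36.3 CPM in the young-SP libraries. DESeq2 called Col11a1 and Col5a1, both on the lower side, beside 1.92% of all genes. In edgeR, leaving out young-SP replicate 1 gave 2 called genes of this list, beside 3.45% of all tested genes. Leaving out young-SP replicate 2 or 4 gave 0. Col1a1 and Col3a1, the most abundant of the list, had log2 fold changes of -0.90 (SE 0.13) and -0.86 (SE 0.14) with adjusted p-values of 0.0734 and 0.0760 in edgeR. Col1a2, Col5a2 and Pcolce, which enhances C-terminal cleavage, were lower at an unadjusted p under 0.05 in edgeR as well, and Col11a2 was higher.

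The COMP-cleaving pair Adamts7 and Adamts12, which act on cartilage oligomeric matrix protein, had lower levels in both aged-SP libraries. Adamts7 (chr9:90163069-90208071) was at 29.2 and 30.0 CPM in the aged-SP libraries and 39.5, 60.6 and 54.0 CPM in the young-SP libraries. Adamts12 (chr15:11064790-11349231) was at 39.6 and 42.1 CPM in the aged-SP libraries and 49.2, 69.8 and 62.4 CPM in the young-SP libraries. Neither gene's groups overlapped, and young-SP replicate 1 was the lowest young-SP library for both. Adamts7 had a log2 fold change of -0.79 (SE 0.20) with an adjusted p of 0.134 in edgeR and 0.0128 in DESeq2, whose call it missed by fold change, and Adamts12 one of -0.57 (SE 0.16) with 0.170 and 0.0625. Without young-SP replicate 1 the estimates were -0.96 and -0.71, with adjusted p-values of 0.0222 and 0.0352 in edgeR.

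The remaining pairs are Adamts6 with Adamts10, Adamts16 with Adamts18 and Adamts17 with Adamts19. Adamts16 (chr13:70727802-70841811), which cleaves fibronectin, was at 1.33 and 1.47 CPM in the aged-SP libraries and 4.44, 14.8 and 9.73 CPM in the young-SP libraries. The 2 aged-SP libraries were alike and low, and the young-SP libraries spread over a wide range above them, with means of 1.40 ± 0.0996 CPM (SD, n = 2) against 9.64 ± 5.16 CPM (SD, n = 3). The log2 fold change was -2.78 (SE 0.58), with an adjusted p of 0.106 in edgeR and 6.27e-05 in DESeq2, and -3.14 with 0.0183 in edgeR without young-SP replicate 1. Adamts19 (chr18:58836764-59053678), a gene linked to heart valve disease, was at 13.0 and 12.6 CPM in the aged-SP libraries and 18.9, 23.4 and 23.1 CPM in the young-SP libraries. Its aged-SP libraries were below all young-SP libraries, with a log2 fold change of -0.76 (SE 0.15) and adjusted p-values of 0.1004 in edgeR and 0.00429 in DESeq2, and -0.87 with 0.0383 in edgeR when young-SP replicate 1 was left out. Adamts17 (chr7:66839735-67153171) was at 2.66 and 1.66 CPM in the aged-SP libraries and 4.44, 7.38 and 3.67 CPM in the young-SP libraries, again without overlap (log2 fold change -1.25, SE 0.42, edgeR's adjusted p = 0.207). Adamts10 (chr17:33524204-33553782), a protease of fibrillin microfibrils, was the ADAMTS gene whose groups separated upwards, at 81.9 and 76.3 CPM in the aged-SP libraries and 63.4, 72.6 and 63.5 CPM in the young-SP libraries (log2 fold change 0.25, SE 0.10, edgeR's adjusted p = 0.272). Adamts6 and Adamts18 overlapped, at 0.30 (SE 0.30) and -0.38 (SE 0.61).

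The 7 proteoglycanase-type members, Adamts1, Adamts4, Adamts5, Adamts8, Adamts9, Adamts15 and Adamts20, most of which cleave versican or aggrecan, had 3 estimates above and 4 below 0 (median -0.10), and none was called by edgeR or DESeq2. Adamts1 (chr16:85793827-85803113), a progesterone-responsive protease of the ovary, was the ADAMTS gene with the highest FPKM and stood at 165 and 219 CPM in the aged-SP libraries and 180.5, 176 and 189 CPM in the young-SP libraries. Aged-SP replicates 1 and 4 were the lowest and the highest library, the log2 fold change was 0.08 (SE 0.14, edgeR's adjusted p = 0.796), and it turned to -0.14 without aged-SP replicate 4. Adamts15 (-0.67, SE 0.27) and Adamts20 (-1.59, SE 0.66) were lower without overlap, with adjusted p-values of 0.270 and 0.278 in edgeR. Adamts20 had only 4 and 5 against 6, 16 and 19 reads. It passed the filter on low counts only through young-SP libraries, where it is high, so its separation is not independent of that filter. Adamts4, Adamts5, Adamts8 and Adamts9 overlapped, with log2 fold changes of 0.02, -0.46, -0.10 and 0.48.

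Versican, a substrate of these enzymes, and the link proteins Hapln1 and Hapln3 had lower levels in both aged-SP libraries. Of 8 hyaluronan-binding proteoglycans and link proteins, Vcan, Hapln1 and Hapln3 were tested. DESeq2 called all 3 on the lower side, beside 1.92% of all genes. With all libraries edgeR called 0, and without young-SP replicate 1 it called 2, beside 3.45% of all tested genes. Vcan (versican) was at 70.5 and 35.7 CPM in the aged-SP libraries and 245, 215 and 259.9 CPM in the young-SP libraries. Aged-SP libraries stood clear of the young-SP libraries, with a log2 fold change of -2.18 (SE 0.31) and adjusted p-values of 0.0734 in edgeR and 1.83e-10 in DESeq2. Hapln1 and Hapln3, link proteins that tie proteoglycan to hyaluronan, had log2 fold changes of -2.50 (SE 0.31) and -1.73 (SE 0.31), with adjusted p-values of 0.0674 and 0.0867 in edgeR. The untested link proteins went otherwise, with 8 and 17 against 5, 0 and 1 reads for Hapln2, higher in both aged-SP libraries, and 12 and 4 against 9, 7 and 6 for Hapln4, where the groups overlapped. Their counts fall outside the naming rule and were chosen after they were seen. Of the 6 stromal markers, 5 were also fitted lower in the aged-SP group (median -0.28). Pdgfra (346 and 344 against 453, 616 and 559 CPM) had the lowest estimate, and Vim and Hoxa10 overlapped between groups. Pdgfrb (142 and 140 against 96.7, 122 and 115 CPM) was higher without overlap. The part of stromal content in the lower ADAMTS, collagen and proteoglycan values was not tested.

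The ADAMTSL genes held members at both ends. Adamtsl2 (chr2:27079379-27108981), which binds fibrillin and a latent TGF-beta binding protein, was at 0.906 and 1.47 CPM in the aged-SP libraries and 3.81, 6.85 and 3.27 CPM in the young-SP libraries. The aged-SP libraries were the lowest of the 5, with means of 1.19 ± 0.398 CPM (SD, n = 2) against 4.64 ± 1.93 CPM (SD, n = 3). Its log2 fold change was -1.97 (SE 0.46), with an adjusted p of 0.126 in edgeR and 0.00635 in DESeq2. Adamtsl1 (chr4:85514172-86428385), also called punctin, was at 72.6 and 102 CPM in the aged-SP libraries and 44.98, 54.0 and 72.1 CPM in the young-SP libraries. Aged-SP replicate 1 exceeded young-SP replicate 4 by little, and the log2 fold change of 0.61 (SE 0.24) had an adjusted p of 0.258 in edgeR and was 0.35 without aged-SP replicate 4. Adamtsl4 (chr3:95676201-95687917), a fibrillin-associated protein of the eye's suspensory fibers, was at 17.1 and 21.5 CPM in the aged-SP libraries and 20.4, 23.7 and 26.9 CPM in the young-SP libraries. Adamtsl5 (chr10:80339110-80348412) was at 11.95 and 13.7 CPM in the aged-SP libraries and 10.6, 8.21 and 13.8 CPM in the young-SP libraries. Both overlapped between groups, with log2 fold changes of -0.29 (SE 0.18) and 0.24 (SE 0.25), and Adamtsl3, at -0.73 (SE 0.32), was lower without overlap (edgeR's adjusted p = 0.296). With 1 library left out the estimates ranged between -0.47 and -0.14 for Adamtsl4 and between 0.07 and 0.44 for Adamtsl5.

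ADAMTSL proteins, Adamts10 and the stromelysins Mmp3 and Mmp10 relate to fibrillin microfibrils, elastic fibers and basement membrane. Of 17 genes of these structures, 13 were fitted lower (median -0.32). At an unadjusted edgeR p under 0.05, 8 were lower and 1 higher, beside 9.36% and 9.62% of all tested genes. With all libraries edgeR called 0, while DESeq2 called Fbn1 and Lama2 on the lower side, beside 1.92% of all genes. Fbn1 (fibrillin 1) had -1.15 (SE 0.21) and Lama2 (a laminin chain) -1.07 (SE 0.18) as log2 fold changes, with adjusted p-values of 0.0905 and 0.0829 in edgeR. Without young-SP replicate 1, edgeR called 5 genes of this list, beside 3.45% of all tested genes. Ltbp1, a binding partner of Adamtsl2, was the higher gene, at 218 and 209.7 CPM in the aged-SP libraries and 151, 124 and 134 CPM in the young-SP libraries (log2 fold change 0.65, SE 0.11, edgeR's adjusted p = 0.0829).

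Activators and other inhibitors of the families lay on both sides of 0. In a list of 11 tested genes for activation, inhibition and clearance, 5 were fitted higher and 6 lower (median -0.20, and 0.05 without aged-SP replicate 1). Of this list edgeR called 0 and DESeq2 called Pcsk6 and Pcsk5, beside 3.60% of all genes. Both are proprotein convertases that cut the propeptides of metalloproteinases. Pcsk6 was at 68.8 and 33.2 CPM in the aged-SP libraries and 13.9, 16.9 and 10.9 CPM in the young-SP libraries. Pcsk5 was at 71.5 and 34.9 CPM in the aged-SP libraries and 88.1, 149 and 104 CPM in the young-SP libraries. Both separated the groups, in opposite directions, with log2 fold changes of 1.87 (SE 0.34) and -1.10 (SE 0.37) and adjusted p-values of 0.0889 and 0.214 in edgeR and 2.90e-05 and 0.0360 in DESeq2. Tfpi2, a serine protease inhibitor of the matrix, and B3glct, which glycosylates thrombospondin repeats, were lower at an unadjusted p under 0.05 (log2 fold changes -0.90 and -0.43), and Bsg, an inducer of MMP expression, was higher (0.29). In the plasminogen system, which activates several proMMPs, 5 of 7 tested genes were fitted higher with a median of 0.06, which was 0.34 without young-SP replicate 4, 0 were called by either tool, and Serpine2, an inhibitor of plasminogen activators, was lower at 56.2 and 40.2 CPM in the aged-SP libraries and 75.5, 65.8 and 62.3 CPM in the young-SP libraries (log2 fold change -0.49, SE 0.17, edgeR's adjusted p = 0.224). Of the 12 ADAM relatives, 6 were fitted higher and 6 lower (median 0.02). At an unadjusted edgeR p under 0.05, Adamdec1 and Adam22 were higher and Adam12 and Adam23 lower. Adamdec1 was at 23.7 and 11.0 CPM in the aged-SP libraries and 8.50, 1.24 and 2.60 CPM in the young-SP libraries (log2 fold change 2.07, SE 0.79, edgeR's adjusted p = 0.248). Adam12, a protease of stromal and muscle precursor cells, was the only ADAM gene called by DESeq2, beside 3.60% of all genes. With all libraries edgeR called 0 ADAM genes, and without young-SP replicate 1 it called 2, beside 3.45% of all tested genes. Adam12 was at 19.98 and 27.6 CPM in the aged-SP libraries and 81.7, 149 and 115 CPM in the young-SP libraries. Its log2 fold change was -2.28 (SE 0.31), with adjusted p-values of 0.0734 in edgeR and 1.27e-11 in DESeq2.

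The library that stood apart changed which members were called. Without young-SP replicate 1, edgeR called 4 of 42 tested members (9.52%, beside 3.45% of all tested genes), namely Mmp10 (3.25, adjusted p = 0.0443), Mmp12, Adamts14 (-1.56, adjusted p = 0.0237) and Adamts16. Mmp16, Adamts7, Adamts12 and Adamts19 then had an adjusted p under 0.05 but not the fold change for a call. The groups then did not overlap for 12 members with higher and 14 with lower levels, beside 28.5% and 26.9% of all tested genes. Without a filter on low counts edgeR called 3 of 49 members, Mmp10, Mmp11 and Adamts14, beside 0.708% of all 28666 genes. Mmp10, Mmp11, Mmp12, Adamts14, Adamts16 and Adamtsl2 kept their direction with any 1 library left out. Their groups do not overlap, so leaving out 1 library could hardly turn their direction. The size of the Mmp7 estimate ranged between 0.92 and 10.06.

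**Figure D5:**
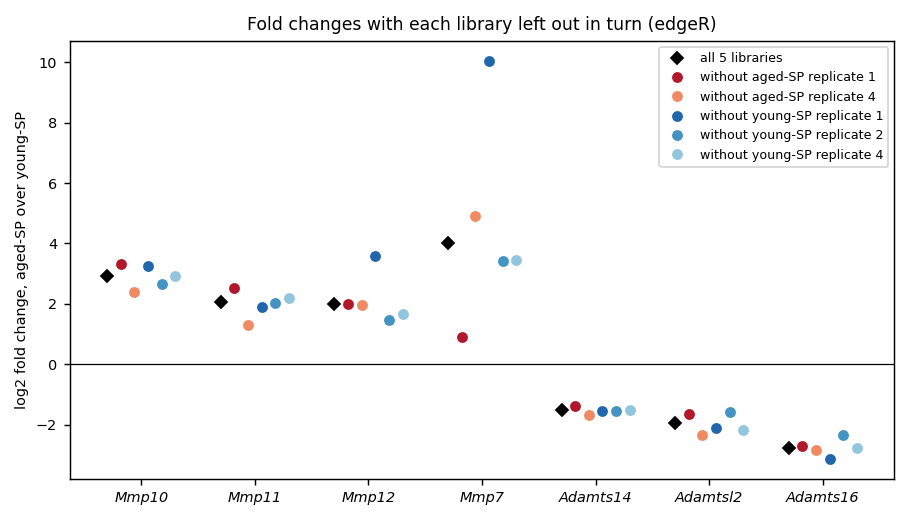
Log2 fold change (aged-SP over young-SP, edgeR; y axis) of 7 members (x axis) with all 5 libraries (diamonds) and with each library left out in turn (circles). Adamts14 stays between -1.69 and -1.38, while Mmp7 moves between 0.92 and 10.06.

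The 5 untested members had few reads. Mmp20 (enamelysin) had 2 and 3 against 1, 0 and 0 reads, Mmp21 had 0 and 1 against 0, 0 and 0 and Mmp24 had 0 and 1 against 0, 0 and 1. Adamts13, the protease of von Willebrand factor, had 13 and 4 against 8, 3 and 2 reads and Timp4 had 3 and 2 against 5, 4 and 5. At these counts no difference was detectable, and absence of a difference is not shown. Mmp17, Mmp23, Mmp25 and Mmp15, the members not yet given values, had log2 fold changes of 0.07, -0.19, -0.62 and -0.27, all with overlapping groups.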

How the data were processed

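RNA of whole uteri from 5 females was analysed. The libraries were made with a kit that does not mark strand from RNA with an integrity number of at least 8. The authors aligned reads with HISAT2 2.1.0 and deposited read counts per gene that were not normalized. Bowtie2 2.2.3 and HTSeq 0.6.0 are named in the submitters' processing notes, and their roles were not given in the sources used here. The FPKM that the authors deposited come from the same counts, as checked on the values, where the implied gene length differed between libraries by at most 8.48e-06% over 15213 genes. FPKM served only to compare levels between genes. Fold changes and p-values of the authors' own DESeq2 comparison, in the same table, were not used.

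Counts were tested with edgeR 4.0.16 (filterByExpr, TMM, glmQLFit, glmQLFTest) in R 4.3.3, with Benjamini-Hochberg adjustment over 17013 genes. TMM factors lay between 0.990 and 1.02, and the biological coefficient of variation was 25.1%. Positions follow the deposited table (GRCm38). GENCODE M21 places 46 of 49 members identically, and with it overlapping exons and shared 50-base stretches were counted. Promoters came from RefSeq (GRCm38.p6), which matched 34 members. DESeq2 1.42.0, limma 3.58.1 (voom), other scalings and filters, a replicate block and leaving out each library were alternatives. Scripts were tested on simulated data.

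Every member was named. Values per library were given for members called by edgeR or DESeq2 or with an unadjusted edgeR p under 0.05, for TIMP genes, Mmp2, Mmp7 and Mmp9, and for the 3 members of each family with the highest FPKM. Other genes came from 6 lists of related genes (those with an unadjusted edgeR p under 0.05 or the 2 highest FPKM) and from 13 marker lists. The members and lists were chosen with earlier results of these data known.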

Additional observations from a re-analysis of the deposited data

How the results depend on the processing

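edgeR called 0 members with DESeq2 size factors, with library size alone, with at least 10 counts in every library (37 members tested), with the replicate block and with the adjusted p as the only threshold, and limma-voom also called 0. DESeq2 called 5 and edgeR without a filter on low counts 3, and leaving out 1 library gave 0 to 4 calls, with 4 only when young-SP replicate 1 was left out. The cause was not tested. The median log2 fold change of the members was -0.09 and lay between -0.21 (without aged-SP replicate 4) and 0.071 (without young-SP replicate 4) when 1 library was left out, and between -0.19 and -0.08 in the other alternatives. The number of members whose groups do not overlap was 20, became 21 under both other scalings, and was 26 without young-SP replicate 1, an alternative chosen after seeing the data. Of 24 members followed through every alternative that tested them, 23 kept their sign. Members whose groups do not overlap could hardly lose it when 1 library was left out. Adamts1 ranged between -0.14 (without aged-SP replicate 4) and 0.27 (without aged-SP replicate 1) with 1 library left out. Where 1 aged-SP library remained, it was assumed to vary like the young-SP libraries. The median of all tested genes lay between -0.01 and 0.01 in every setting.

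Replicates 1 and 4 of both groups share a number that the labels do not tie to a litter, batch or day. The deviations of same-numbered libraries from their group means correlated at 0.152 and 0.136 over 2 pairs. The deviations of the 2 aged-SP libraries mirror each other, so these values are not independent. With the replicate block the median log2 fold change of the members was -0.10, and edgeR called 0 members, as it did without the block. Young-SP replicate 2 is alone in its block and few degrees of freedom remain. This fit therefore cannot show whether the shared numbers matter. With 2 aged-SP and 3 young-SP libraries, and with at most 64 reads per library for Mmp10 and 19 for Adamts20, small differences were not detectable.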

Other observations

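Mast cells store proteases outside the MMP and ADAMTS families, which were read beside the members. All 6 mast cell markers were fitted higher in the aged-SP group, with a median log2 fold change of 1.40. Mcpt4, a chymase, was at 16.2 and 51.4 CPM in the aged-SP libraries and 5.87, 11.8 and 20.1 CPM in the young-SP libraries. Cpa3, a carboxypeptidase, was at 18.2 and 52.5 CPM in the aged-SP libraries and 5.62, 13.5 and 22.0 CPM in the young-SP libraries. Aged-SP replicate 4 was the highest library for both genes and aged-SP replicate 1 lay within the young-SP range, and edgeR's adjusted p-values were 0.309 and 0.329. Mrgprb1, a receptor of mast cells, was the marker of this list whose groups did not overlap, at 1.63 and 4.54 CPM in the aged-SP libraries and 0.437, 0.827 and 0.333 CPM in the young-SP libraries (log2 fold change 2.50, SE 0.60, edgeR's adjusted p = 0.129), and DESeq2 called it (adjusted p = 0.0167). The summed mast cell markers were 60.9 and 200.2 against 22.8, 49.0 and 79.8 CPM. Mmp11 was likewise highest in aged-SP replicate 4, but so were other members such as Mmp3, Mmp14 and Timp2. A relation of these genes to mast cells was not tested.

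Other marker lists were summed in the same order of libraries. Endothelial markers were at 579 and 593 against 455, 738 and 568 CPM, T and NK cell markers at 33.6 and 25.3 against 43.4, 32.0 and 54.0 CPM and neutrophil markers at 82.0 and 15.6 against 141, 40.4 and 25.4 CPM. Oviduct markers, mostly Ovgp1, summed to 58.0 and 125 against 72.6, 45.05 and 244 CPM, ovary markers, mostly Star, to 30.4 and 66.2 against 22.4, 16.6 and 38.1 CPM, vagina and cervix markers to 16.2 and 17.6 against 17.2, 14.2 and 24.9 CPM, and skeletal muscle markers, mostly Acta1, to 91.3 and 115 against 192, 254 and 263 CPM. Their part in the values of the members was not tested.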
